A study of Mus musculus with 6 samples.

Results

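The genes described here are the Zfp-named zinc finger genes of the mouse genome, taken by their symbol (Zfp, a number and at most one letter). They had to lie on an autosome other than chromosomes 4 and 10 and to hold at least 20 counts over both alleles in each of the 6 libraries. Of 279 Zfp-named genes that the allele table lists on these 17 autosomes, 199 met the minimum (71.3%). Of the other 80, 34 reached it in some libraries and 46 in none, and 28 of these had no allelic count at all. Just inside the minimum lay Zfp953, Zfp112 and Zfp930, each with 23 counts in its poorest library, and just outside lay Zfp946 with 19 and Zfp960 and Zfp40 with 18.

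The libraries were RNA-seq of immortalised B cells of F1 mice from the cross 129S1/SvImJ x CAST/EiJ, in which single-base differences between the parental genomes let the maternal and paternal transcripts of a gene be counted apart. The lines were Abl.2 (female), Abl.3 (male) and Abl.4 (female), each a single clone. All of them were controls grown in medium with 1% DMSO, a solvent, and live cells were collected on day 2. Each line had 2 libraries, labelled as library preparation replicates, so the p-values below measure only the spread between preparations, which may be technical, and a difference between lines is a difference between clones. Abl.3 is the only male clone, so in comparisons with it sex and clone cannot be told apart. All lines are given as the same cross, so the parent and the strain of an allele cannot be told apart either.

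Zfp genes encode proteins with tandem C2H2 zinc fingers, small folds around a zinc ion that read DNA sequence. Many also carry a KRAB domain, which recruits the co-repressor encoded by Trim28 and, through it, enzymes that lay down repressive histone and DNA methylation, largely over transposable elements. These KRAB zinc finger genes arose by repeated tandem duplication and sit in clusters whose members can be nearly identical. In a pattern search of the translated GENCODE coding sequences, 197 of the 199 genes had at least 1 C2H2 finger (median 10, highest 36 in Zfp142). A KRAB box pattern matched in 101, which are called KRAB genes in the results. The pattern is short and can miss a box, so genes without a match may still encode one. The exceptions without a finger match were Zfp36, which encodes tristetraprolin, an RNA-binding protein with a different type of zinc finger that marks messengers for decay, and Zfp839.

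Promoters are shown for 4 of the genes the results turn on. Zfp518a and Zfp551 were read almost wholly from opposite alleles in different clones, and Zfp202 and Zfp799 from a single allele in some clones and from both in another. Each run covers 250 bases before to 50 after the RefSeq start site on build GRCm38.p6, written 5′ to 3′ on the strand of the gene. For Zfp551 the run lies wholly inside the deposited coordinates of the gene, so its RefSeq start is not the deposited start. Capitals mark every CG, the dinucleotide at which mammalian DNA is methylated and which reads the same on both strands. Methylation itself was not analysed here.
Zfp518a, chr19:40894455-40894754, plus strand: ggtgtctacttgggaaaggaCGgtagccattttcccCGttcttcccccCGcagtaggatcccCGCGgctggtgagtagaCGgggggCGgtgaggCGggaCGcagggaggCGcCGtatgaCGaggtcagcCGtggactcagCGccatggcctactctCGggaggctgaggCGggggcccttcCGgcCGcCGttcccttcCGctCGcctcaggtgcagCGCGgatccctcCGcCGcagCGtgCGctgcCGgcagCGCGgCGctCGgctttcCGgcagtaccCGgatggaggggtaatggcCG
Zfp551, chr7:12422442-12422741, minus strand: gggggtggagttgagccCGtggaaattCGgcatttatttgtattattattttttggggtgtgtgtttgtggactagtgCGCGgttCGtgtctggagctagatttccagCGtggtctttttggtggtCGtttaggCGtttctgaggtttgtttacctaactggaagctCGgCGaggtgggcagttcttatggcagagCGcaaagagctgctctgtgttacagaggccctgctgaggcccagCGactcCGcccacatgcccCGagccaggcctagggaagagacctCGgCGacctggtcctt
Zfp202, chr9:40192066-40192365, plus strand: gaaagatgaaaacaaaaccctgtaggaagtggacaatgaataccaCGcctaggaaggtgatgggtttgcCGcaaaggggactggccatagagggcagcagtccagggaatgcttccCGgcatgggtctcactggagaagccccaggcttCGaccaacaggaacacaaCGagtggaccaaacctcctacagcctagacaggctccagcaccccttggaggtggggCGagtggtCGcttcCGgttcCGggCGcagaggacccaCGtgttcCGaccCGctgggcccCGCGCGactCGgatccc
Zfp799, chr17:32830212-32830511, minus strand: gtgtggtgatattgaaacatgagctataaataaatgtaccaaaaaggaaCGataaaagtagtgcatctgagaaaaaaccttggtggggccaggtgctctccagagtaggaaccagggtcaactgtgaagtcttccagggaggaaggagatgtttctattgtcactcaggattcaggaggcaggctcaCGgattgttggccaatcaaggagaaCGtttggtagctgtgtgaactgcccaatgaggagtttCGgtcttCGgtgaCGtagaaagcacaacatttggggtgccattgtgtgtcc
The runs differ widely in CG content. The promoter of Zfp518a holds 35 CG, and 6.95% of the 32851 promoter entries of that length hold at least as many. Zfp202 has 17 (31.4% of entries hold at least as many), Zfp551 has 16 (33.0%) and Zfp799 has 6 (56.4%). Over the 169 genes with an entry, 112 had a promoter with an observed CG number of at least 0.6 of that expected from its C and G content (66.3%). The share was 38.4% over all 27025 genes with an entry, and 81.1% over the 5822 such genes that reached the same count minimum. Among Zfp genes with an entry it was 47.4% (9 of 19) for those strongly biased to one allele in some clone, as defined below, and 68.7% (103 of 150) for the others, a difference that was not tested.

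Allelic counts per library totalled 18362319 to 26881211. The Zfp genes were covered more thinly than the average gene, with medians of 331 to 589 counts per library against 874 to 1327 over the 7495 genes of the 17 autosomes at the minimum. The summed abundance of 11 B-lineage markers was 12636 to 14001 TPM (a measure scaled to gene length and library total). The 7 T cell markers summed to 1.25 to 2.41 TPM, with Cd3g, Cd4 and Trac at 0 in every library, and the 6 myeloid markers to 75 to 193 TPM, with Elane and Adgre1 at 0 and 1 or 2 of the 6 above 1 TPM. Of the 199 genes, 86 overlap another gene in GENCODE and 12 share over 20% of their 50-base words with other genes, so their counts could hold reads of another gene; the median share of such words was 0.48%.

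The first question was how evenly each clone used the alleles of these genes. Most were close to even. Taken line by line, 165 of 199 had a mean maternal share between 0.3 and 0.7 (82.9%, against 87.4%, 87.9% and 89.1% of all genes in Abl.2, Abl.3 and Abl.4). They were not the same genes each time, and 142 lay in this range in all the lines. The median share was 0.504, 0.508 and 0.506 in the order of the lines. Unequal allelic counts were called by edgeR's quasi-likelihood test (Benjamini-Hochberg adjusted p below 0.05 over all genes) for 78 Zfp genes in Abl.2 (39.2%, next to 41.5% of all genes of the 17 autosomes). Of these, 47 were higher from the maternal and 31 from the paternal allele (23.6% and 15.6%, next to 21.1% and 20.4%). Abl.3 had 75 calls (37.7%, next to 43.9%), with 41 maternal and 34 paternal (20.6% and 17.1%, next to 20.2% and 23.7%). Abl.4 had 72 (36.2%, next to 38.2%), split evenly at 36 each (18.1%, next to 19.7% and 18.5%). The calls were thus about as frequent as over all genes. Counts with a library left out, here and below, are given without the share over all genes, which may fall as well. Without replicate 2 of Abl.3 its count was 46. The maternal calls in Abl.2 numbered 29 without its replicate 1 and the paternal calls 20 without its replicate 2. Paternal calls in Abl.3 fell to 18 and 17 without its replicate 1 or 2, and those in Abl.4 to 23 without its replicate 1. In the authors' deposited table the interval of the allelic fraction excluded 0.5 for 52 of 195 Zfp genes in Abl.2 (26.7%, next to 29.1% of all genes), 37 of 190 in Abl.3 (19.5% next to 25.6%) and 28 of 190 in Abl.4 (14.7% next to 20.9%).

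Imbalance in the same direction in all lines was called for 18 genes on the maternal side and 15 on the paternal side (9.05% and 7.54%, next to 11.1% and 10.7% of all genes). Zfp677 and Zfp948 were the extreme cases. Both encode KRAB zinc finger proteins and lie in one cluster on chromosome 17, and they were read from opposite parental alleles. For a bias kept in all lines, parent of origin and strain cannot be told apart. Zfp677 (chr17:21383748-21399265) had 1 paternal count among the 624 of its 6 libraries, in replicate 1 of Abl.3. Its abundance was low, with 0.86 and 1.72 TPM in Abl.2, 1.16 and 1.95 in Abl.3 and 0.35 and 0.56 in Abl.4. Zfp948 (chr17:21567008-21588699) had 4 maternal counts among 517, 3 of them in replicate 2 of Abl.2 and 1 in replicate 1 of Abl.4. By edgeR's adjusted p, imbalance was called in every line for Zfp677 (2.21e-05, 4.95e-05 and 0.000407 in the order of the lines) and Zfp948 (3.13e-05, 0.000113 and 0.000171). At these depths a share of zero in a single library still allows up to 10.7% of the other allele, the limit for the 28 counts of Zfp677 in replicate 1 of Abl.4, since 3 counts could have been missed; such limits cover counting error only.

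Strong bias, here a maternal share averaging 0.1 or less, or 0.9 or more, was found for 23 Zfp genes in at least 1 line (11.6%, next to 8.14% of all genes). There were 15 in Abl.2 (7.54%, next to 5.62%), 9 in Abl.3 (4.52%, next to 4.34%) and 12 in Abl.4 (6.03%, next to 3.84%). Neither parent dominated. In Abl.2, 8 were maternal and 7 paternal (4.02% and 3.52%, next to 2.76% and 2.86% of all genes), in Abl.3 5 and 4 (2.51% and 2.01%, next to 2.12% and 2.21%), and in Abl.4 5 and 7 (2.51% and 3.52%, next to 1.83% and 2.01%). Beside the pair that kept its bias in all lines, 16 genes were strongly biased towards one parent in 1 or 2 lines (8.04%, next to 5.87%). The remaining 5 were strongly biased towards opposite parents in different lines, which is 2.51% of the Zfp genes next to 0.427% of all genes (32 genes). These classes rest on the values themselves and no test of the list was made.

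**Figure D1:**
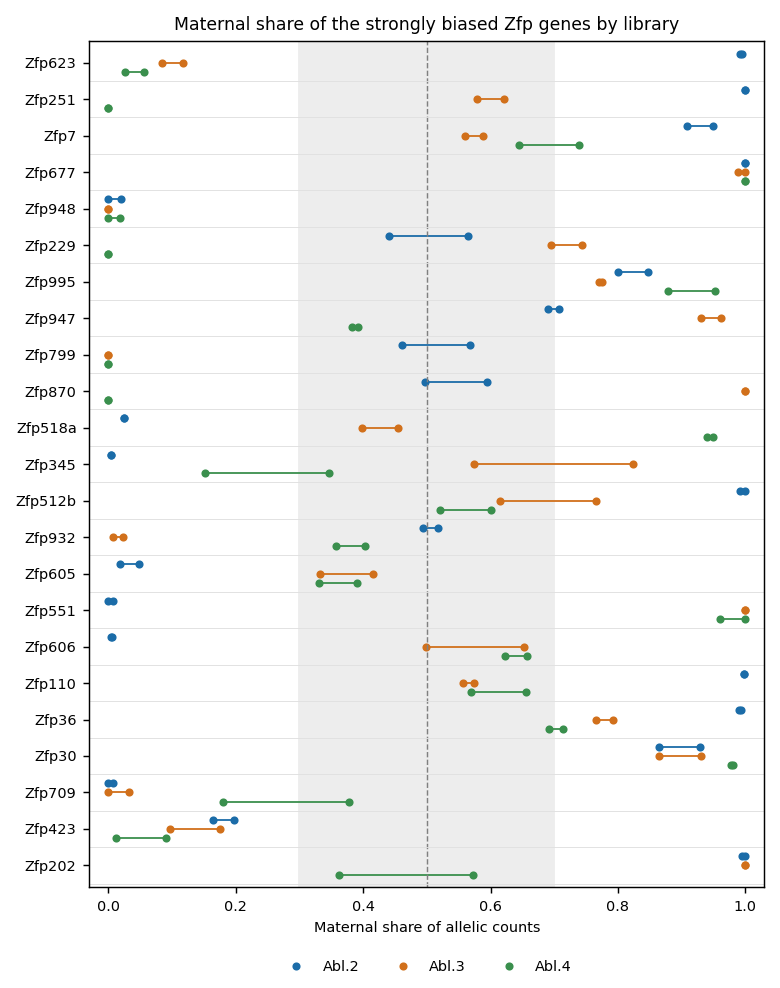
Maternal share of allelic counts (horizontal axis, 0 to 1) of the 23 Zfp genes strongly biased in at least 1 line. Each point is a library, a line joins the 2 libraries of a clone, the grey band spans 0.3 to 0.7; Zfp251, Zfp870, Zfp623, Zfp518a and Zfp551 lie at both ends of the axis in different clones.

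The 5 genes read from opposite parents in different clones are Zfp623, Zfp251, Zfp870, Zfp518a and Zfp551. Zfp623 (chr15:75940952-75949400) was read from the maternal allele at shares of 0.995 and 0.992 in Abl.2. Abl.3 stood at 0.084 and 0.118, and Abl.4 at 0.056 and 0.026, so Abl.2 was apart from both other lines. The allelic difference was called by edgeR for Abl.2 against Abl.3 (adjusted p = 6.59e-08) and against Abl.4 (adjusted p = 4.83e-08). Between Abl.3 and Abl.4 it did not pass (adjusted p = 0.127). Its total abundance hardly moved, with 6.28 and 6.47 TPM in Abl.2, 6.23 and 5.56 in Abl.3 and 4.73 and 5.69 in Abl.4.

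Zfp251 (chr15:76851609-76871435) lies on the same chromosome and showed every state. In Abl.2 all 777 allelic counts were maternal, and in Abl.4 all 511 were paternal. In Abl.3 both alleles were used, with maternal shares of 0.622 and 0.579. The undetected allele could hold up to 0.796% and 0.75% of counts in the libraries of Abl.2 and 1.13% and 1.22% in those of Abl.4. All 3 pairs of lines differed by edgeR, with adjusted p = 1.05e-06 for Abl.2 against Abl.3, 2.73e-08 for Abl.2 against Abl.4 and 1.68e-06 for Abl.3 against Abl.4. The clone that used both alleles had the most transcript: 10.1 and 9.51 TPM, against 4.71 and 4.46 in Abl.2 and 3.42 and 3.44 in Abl.4.

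Zfp870 (chr17:32879219-32891642), a KRAB gene, was likewise at 0.594 and 0.497 in Abl.2, wholly maternal in Abl.3 (638 counts) and wholly paternal in Abl.4 (309 counts). The difference between Abl.3 and Abl.4 was called by edgeR with adjusted p = 4.21e-07. Its abundance was highest where both alleles were used, at 1.78 and 1.87 TPM in Abl.2, against 0.82 and 1.17 in Abl.3 and 0.45 and 0.76 in Abl.4. A non-coding gene, CT033772.1, overlaps it, and the strand of the counting is not given in the sources used here. Zfp518a (chr19:40894705-40917947), whose CG-rich promoter is shown above, had shares of 0.025 in both libraries of Abl.2, 0.454 and 0.398 in Abl.3, and 0.949 and 0.940 in Abl.4. Here neither allele was undetected in any clone, since the minor allele kept 8 and 14 counts in Abl.2 and 11 and 14 in Abl.4. Every pair of lines differed, with edgeR's adjusted p at 5.76e-07, 5.51e-09 and 2.83e-06 for Abl.2 against Abl.3, Abl.2 against Abl.4 and Abl.3 against Abl.4.

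Zfp551 (chr7:12415153-12422751), another KRAB gene, was paternal in Abl.2, with 1 maternal count among 282. It was maternal in Abl.3, with no paternal count among 379, and in Abl.4, with 8 paternal counts among 333, all in replicate 2. By edgeR, Abl.2 differed from Abl.3 (adjusted p = 1.34e-06) and from Abl.4 (adjusted p = 3.37e-06). Abl.3 and Abl.4 were not called different (adjusted p = 0.136). Its abundance varied as much between preparations as between clones, at 3.04 and 0.78 TPM in Abl.2, 1.15 and 1.30 in Abl.3 and 1.94 and 4.91 in Abl.4.

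Several genes were single-allele in Abl.2 alone. Zfp110 (chr7:12834761-12850577), also known as Nrif, which encodes a protein that binds the p75 neurotrophin receptor, was the best covered of the KRAB genes among them. Only 7 of its 3425 counts in Abl.2 were paternal, while Abl.3 was at shares of 0.556 and 0.574 and Abl.4 at 0.569 and 0.655. The difference was called by edgeR against Abl.3 (adjusted p = 1.98e-09) and Abl.4 (adjusted p = 4.02e-09). Zfp36 had shares of 0.991 and 0.993 in Abl.2, 0.765 and 0.793 in Abl.3 and 0.715 and 0.692 in Abl.4. It leaned to the maternal allele in every line, and Abl.2 lay beyond the others (adjusted p = 3.61e-09 against Abl.3 and 1.58e-09 against Abl.4, edgeR). Zfp606 (chr7:12478293-12496235) was at 0.005 and 0.004 in Abl.2, 0.499 and 0.652 in Abl.3 and 0.622 and 0.657 in Abl.4. Its adjusted p from edgeR was 6.04e-07 against Abl.3 and 4.32e-07 against Abl.4.

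Further genes were strongly biased in Abl.2 and in no other line. Zfp512b had shares of 1.000 and 0.992 in Abl.2, 0.614 and 0.765 in Abl.3 and 0.520 and 0.601 in Abl.4; the coding genes Prpf6 and Uckl1 overlap it. Zfp605 was at 0.019 and 0.047 in Abl.2 and between 0.331 and 0.415 in the 4 other libraries. Zfp345 had 2 maternal counts among 529 in Abl.2, but its replicates disagreed elsewhere, with 0.824 and 0.573 in Abl.3 and 0.151 and 0.346 in Abl.4. It shares 29.8% of its 50-base words with other genes. Zfp7, next to Zfp251, was at 0.949 and 0.908 in Abl.2 and at 0.559 to 0.739 elsewhere, on 62 to 97 counts per library.

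Other clones had their own single-allele genes. Zfp932 (chr5:109996521-110010411), a KRAB gene, was paternal in Abl.3 with shares of 0.023 and 0.007, against 0.518 and 0.494 in Abl.2 and 0.403 and 0.358 in Abl.4. By edgeR, Abl.3 differed from Abl.2 (adjusted p = 3.49e-06) and from Abl.4 (adjusted p = 4.26e-05). It shares 37.0% of its 50-base words with other genes. Zfp799 (chr17:32815449-32830261) used both alleles in Abl.2, at 0.460 and 0.567, and had no maternal count in the other lines, among 106 counts in Abl.3 and 87 in Abl.4. Zfp202 (chr9:40192316-40213604) had 1 paternal count among 499 in Abl.2, none among 78 in Abl.3, and shares of 0.573 and 0.362 in Abl.4. Zfp709 was almost wholly paternal in Abl.2 and Abl.3, with 1 maternal count among 178 and 3 among 170, and reached shares of 0.180 and 0.378 in Abl.4. Zfp229 had no maternal count among 85 in Abl.4 and shares of 0.441 to 0.743 in the other lines. Zfp423, which encodes a factor of neural and fat cell development, leaned to the paternal allele throughout, at 0.165 and 0.198 in Abl.2, 0.096 and 0.175 in Abl.3 and 0.012 and 0.090 in Abl.4.

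Between pairs of clones, an allelic difference was called by edgeR for 31 Zfp genes in Abl.2 against Abl.3 (15.6%, next to 18.1% of all genes). It was called for 30 in Abl.2 against Abl.4 (15.1%, next to 13.8%) and 28 in Abl.3 against Abl.4 (14.1%, next to 14.6%). At least 1 pair differed for 49 genes (24.6%, next to 26.1%). The pairs share lines and are not independent. Among called genes, those that also differed by at least 0.2 in mean share numbered 17, 24 and 15 in the same order (8.54%, 12.1% and 7.54%, next to 6.3%, 5.72% and 4.52% of all genes). The median gap in share between replicates was also wider in Zfp genes (0.0361, 0.0402 and 0.0568 in the order of the lines, against 0.022, 0.028 and 0.0302 over all genes), and its part in these counts was not tested. For Abl.3 against Abl.4 the count of calls was 17 without replicate 1 of Abl.3 and 18 without its replicate 2.

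**Figure D2:**
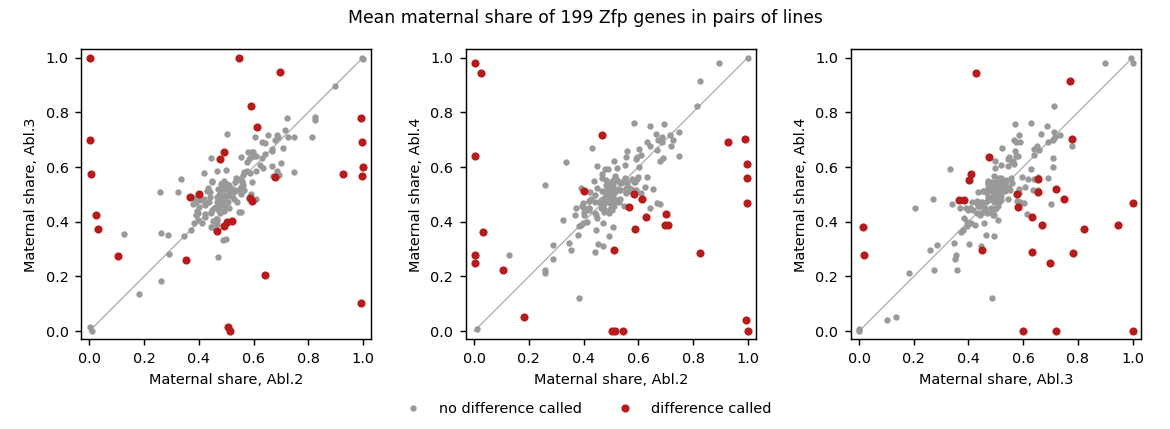
Mean maternal share of each of the 199 Zfp genes in one line (horizontal axis) against another (vertical axis), for the 3 pairs of lines; red points are genes with an allelic difference at an adjusted p below 0.05 (31, 30 and 28 from left to right). Most genes lie near the diagonal around 0.5, and red points reach the corners where the lines used opposite alleles.

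Zfp422, a well covered gene with 2047 to 6452 counts per library, was at 0.622 and 0.606 in Abl.2, 0.723 and 0.773 in Abl.3 and 0.483 and 0.485 in Abl.4. The libraries of the 3 lines did not overlap, and each pair was called (edgeR's adjusted p = 0.000187, 0.000551 and 3.16e-06). Zfp28, a KRAB gene, leaned to the maternal allele in Abl.3 (0.827 and 0.822) and Abl.2 (0.603 and 0.575), and to the paternal one in Abl.4 (0.287 and 0.458). Its difference between Abl.3 and Abl.4 was called with edgeR's adjusted p = 7.64e-05.

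The genes next to a strongly biased Zfp gene were mostly even. For the 36 combinations of a gene and a line with strong bias, the other genes starting within 500 kb had a median share between 0.3 and 0.7 in 34. A median in that range would be common around any gene, since 87.4% to 89.1% of all genes lay in it. The neighbours of other genes were not compared. In 21 of the 36 no neighbour was strongly biased to the same side. Zfp623 in Abl.2 had 18 neighbours with shares of 0.331 to 0.712, and Zfp512b had 14 with shares of 0.454 to 0.618. Zfp202 made the 2 exceptions, with a single neighbour at 0.981 in Abl.2 and 1 in Abl.3. On chromosome 7 the 3 genes Zfp551, Zfp606 and Zfp110 start within 500 kb of each other, and in Abl.2 the first pair was paternal and Zfp110 maternal. In Abl.3 and Abl.4 Zfp551 was maternal while both others stayed between 0.499 and 0.657 in every library.

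Position clusters were built from all Zfp-named genes of the abundance and allele tables on the 17 autosomes, by joining starts at most 250 kb apart. There were 27 clusters of at least 3 genes, holding 181 genes, 104 of them among the 199, and 15 clusters held at least 3 of the 199. Imbalance was called in 40 of the 104 clustered genes in each line (38.5%), next to 38, 35 and 32 of the 95 others (40.0%, 36.8% and 33.7%) and 41.5%, 43.9% and 38.2% of all genes. Strong bias in at least 1 line was found for 13 clustered genes (12.5%) and 10 others (10.5%), next to 8.14% of all genes.

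The cluster at chr17:21383748-22456689 had the most covered genes, 15 of its 18. Zfp677 and Zfp948 mark its extremes, and Zfp229, Zfp995 and Zfp947 were strongly biased in single lines. Zfp995 leaned to the maternal allele in every library, from 0.771 to 0.952, and Zfp52 to the paternal one, with mean shares of 0.288, 0.353 and 0.265. Zfp947 had shares of 0.690 and 0.707 in Abl.2, 0.962 and 0.931 in Abl.3 and 0.382 and 0.391 in Abl.4, on 26 to 75 counts per library, and shares 20.1% of its words with other genes. Zfp54, Zfp51, Zfp942 and Zfp943 were not called in any line. Allelic differences were called for 1, 3 and 4 of the 15 genes in Abl.2 against Abl.3, Abl.2 against Abl.4 and Abl.3 against Abl.4, next to 18.1%, 13.8% and 14.6% of all genes. Zfp947 was the 1 gene called in Abl.2 against Abl.3, and its calls in both pairs with Abl.2 were not stable: with any 1 library of the compared lines left out its adjusted p by edgeR was 0.0642 to 0.106 for Abl.3 and 0.145 to 0.230 for Abl.4, and by DESeq2 0.105 and 0.306. In the fit with the replicate block the call for Abl.4 was also lost (adjusted p = 0.0808). The call of Zfp995 in Abl.3 against Abl.4 was lost without either library of Abl.3 (edgeR's adjusted p = 0.082 and 0.0751).

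The second cluster of the chromosome, chr17:32765496-33394641, held Zfp799 and Zfp870 among 10 covered genes. Their 8 neighbours in the cluster kept mean shares between 0.393 and 0.665 in all lines. Zfp799 and Zfp870 lie side by side, yet in Abl.3 they were read from opposite parents, and in Abl.4 both from the paternal allele.

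**Figure D3:**
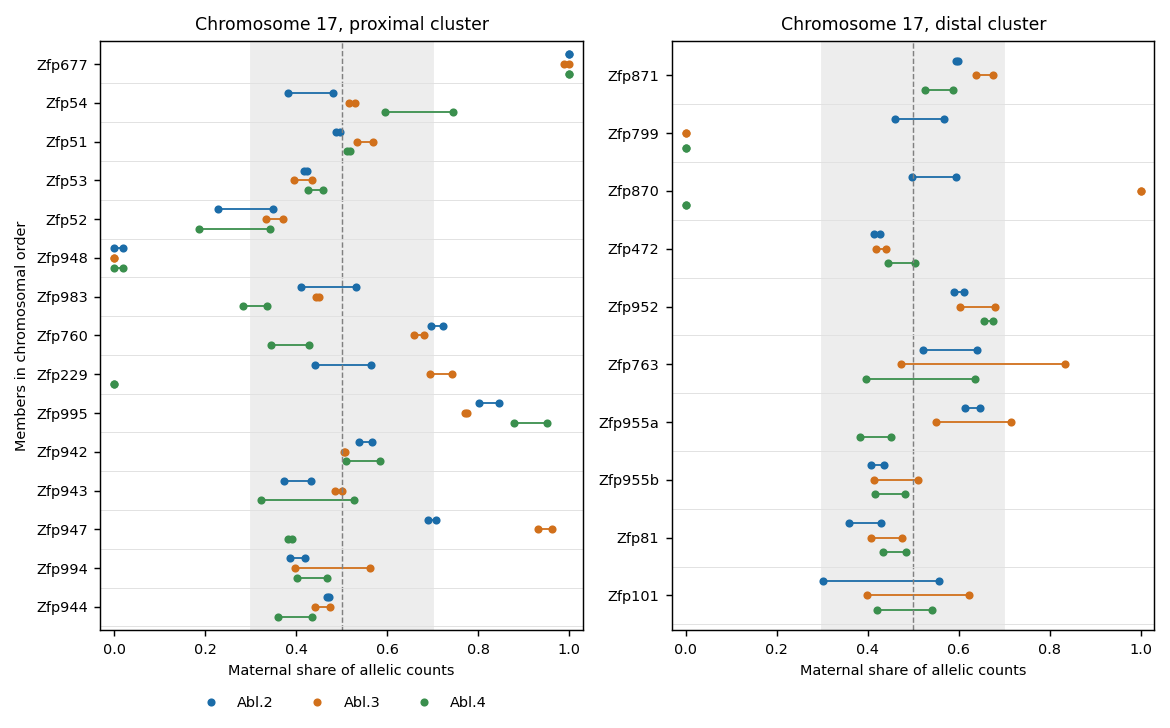
Maternal share (horizontal axis) of the covered Zfp genes in the 2 chromosome 17 clusters, listed in chromosomal order with 15 genes on the left and 10 on the right. Points are libraries, joined within a clone, and the grey band spans 0.3 to 0.7; neighbouring genes such as Zfp799 and Zfp870 on the right lie at opposite ends in Abl.3.

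Among the other clusters, the one at chr7:29768552-30169750 held 13 covered genes, of which Zfp30 was maternal in every line (mean shares 0.897, 0.898 and 0.980) and Zfp146 paternal (0.289, 0.283 and 0.314). Imbalance in this cluster was called on the maternal side for 5, 7 and 5 genes and on the paternal side for 1, 1 and 2, in the order of the lines (21.1%, 20.2% and 19.7% of all genes on the maternal side, 20.4%, 23.7% and 18.5% on the paternal side). Zfp30 had only 37 to 98 counts per library. In the same cluster Zfp568, known to silence a placental transcript of Igf2, was even in Abl.2 and Abl.3 (0.491 and 0.492) and leaned to the paternal allele in Abl.4 (0.346, edgeR call). The 6 genes at chr6:47819266-48086593 had mean shares of 0.425 to 0.548, with a single call, for Zfp212 in Abl.3. The clusters at chr8:69610857-69791178 (Zfp868, Zfp869 and Zfp866) and chr9:22055411-22307648 had no imbalance call in any line. The latter holds Zfp809, known to silence murine leukaemia proviruses, at mean shares of 0.608, 0.482 and 0.482.

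Because TPM and shares were measured in the same libraries, the output of each allele can be written as TPM times its share. For Zfp251 the maternal allele gave 4.59 ± 0.177 TPM in Abl.2 and 5.88 ± 0.538 in Abl.3, and the paternal allele 3.91 ± 0.135 in Abl.3 against 3.43 ± 0.0141 in Abl.4 (all SD, n = 2). The allele in use gave somewhat less in the single-allele clones than in Abl.3, and the other allele gave nothing detectable. Zfp606 gave 1.62 ± 0.107 TPM from its paternal allele in Abl.2, with 1.38 ± 0.327 from that allele in Abl.3 and 1.38 ± 0.193 in Abl.4 (both SD, n = 2). The gap between Abl.2 and Abl.3 was within the spread of the libraries, and the gap between Abl.2 and Abl.4 was not. The paternal allele of Zfp799 gave 0.977 ± 0.00733 TPM in Abl.2, where both alleles were used. Where it was alone it gave 0.515 ± 0.0212 in Abl.3 and 0.535 ± 0.120 in Abl.4 (each SD, n = 2). Zfp110 had another form: its maternal allele alone gave 21.4 ± 1.66 TPM in Abl.2, while in Abl.3 the maternal and paternal alleles gave 11.9 ± 0.719 and 9.16 ± 0.0804 (SD, n = 2). Its total was 20.3 and 22.6 TPM in Abl.2, 20.5 and 21.6 in Abl.3 and 18.9 and 19.9 in Abl.4. In Zfp202 the maternal allele itself differed, at 2.65 ± 0.192 TPM in Abl.2 and 0.420 ± 0.0566 in Abl.3, both without a detectable paternal allele beyond 1 count (SD, n = 2).

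**Figure D4:**
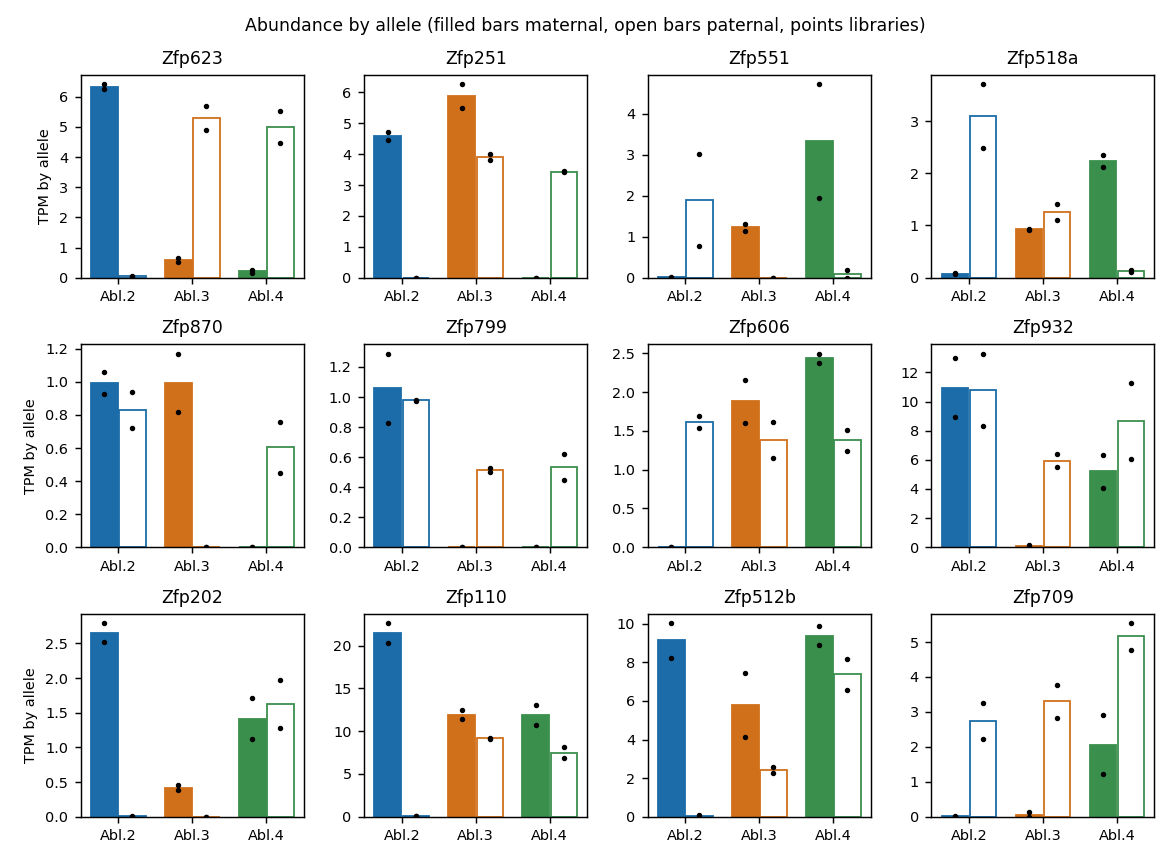
TPM from the maternal allele (filled bars) and the paternal allele (open bars) of 12 strongly biased Zfp genes in the 3 clones; bars are means of 2 libraries and points the libraries. Total output was lower with 1 allele in Zfp251 (9.80 TPM in Abl.3 against 4.59 and 3.43), and not in Zfp110 (21.1 TPM in Abl.3 against 21.5 in Abl.2).

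Over all 13 tested Zfp genes that were strongly biased in one line and between 0.3 and 0.7 in another, there were 25 such combinations of lines. Abundance was lower in the biased line in 20 (80.0%), with a median difference of -0.70 in log2(TPM + 1). Of the 25, 13 were called lower and 0 higher by limma (52.0% and 0%). Over all genes of the 17 autosomes the same comparison gave 80.5% lower and a median of -0.77 in 492 combinations, of which 63.4% were called lower and 11.6% higher. For genes near 1 TPM these counts lean on the filter of a mean of 1 TPM. Zfp799, called lower at 0.515 TPM in Abl.3 and 0.535 in Abl.4, passed it only through the 2.035 TPM of Abl.2. Zfp345 was left out by it and went the other way, at 0.87 TPM in Abl.2, where it was biased, against 0.565 in Abl.3. In log2(TPM + 1) the largest deficits were in Zfp932, at 5.65 and 6.43 TPM in Abl.3 against 17.2 and 26.2 in Abl.2, and Zfp202, at 0.46 and 0.38 TPM in Abl.3 against 2.98 and 3.10 in Abl.4. Zfp932 was also called lower in Abl.3 than in Abl.4 (log2 -1.04), but that call depended on scaling. The difference was -0.75 with quantile normalisation (limma's adjusted p = 0.079) and -0.16 on summed allelic counts (edgeR's adjusted p = 0.663). As a ratio of mean TPM to Abl.2, Zfp799 was lower than Zfp932, at 0.253 in Abl.3 and 0.263 in Abl.4 against 0.278. No lower total was seen for Zfp518a, with 2.55 and 3.80 TPM in Abl.2, 2.03 and 2.34 in Abl.3 and 2.23 and 2.5 in Abl.4. The scale understates changes of genes near 1 TPM.

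Abundance was then compared between clones by limma on log2(TPM + 1), for the 190 Zfp genes that averaged 1 TPM or more. The 197 Zfp genes with a TPM value, tested or not, were of low abundance. Their medians were 8.49 TPM in Abl.2, 6.98 in Abl.3 and 8.30 in Abl.4, against 28.3, 25.3 and 29.5 over all genes at the count minimum. At least 1 pair of lines was called different for 87 of the 190 (45.8%, next to 58.7% of all genes). Among the 197, the range ran from Zfp112, at 0.12 to 0.43 TPM and so not among the 190, to Zfp706, at 114 to 200 TPM. In bulk RNA, fewer cells of a type and less RNA per cell cannot be told apart.

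Against Abl.3, 55 Zfp genes were higher in Abl.2 and 6 lower (28.9% and 3.16%, next to 23.9% and 14.5% of all genes). With quantile normalisation the split was 34 higher and 13 lower (16.9% and 18.5% of all genes), so that the share called higher, 34 of 190, was near that of all genes. EdgeR on summed allelic counts, which tested all 199 Zfp genes, gave 49 and 14 (19.5% and 20.8% of all genes). The replicate number as a block in the fit gave 69 and 10 (28.2% and 17.8%). The median log2 difference was 0.29, next to 0.08 over all genes. Relative to that shift in all genes it was 0.21, and 0.16 and 0.25 with quantile normalisation and summed counts. The count of calls was 36 and 30 without replicate 1 or 2 of Abl.2, and 39 and 29 without replicate 1 or 2 of Abl.3.

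Against Abl.4, 28 genes were higher in Abl.2 and 12 lower (14.7% and 6.32%, next to 12.9% and 19.3%). The split was 44 and 10 with quantile normalisation (16.1% and 17.1% of all genes), 57 and 15 of 199 with edgeR on summed counts (15.9% and 19.5%) and 44 and 16 with the replicate block (17% and 23.6%). The median difference was 0.18, next to -0.04 over all genes. It stood above the shift of all genes by 0.23, and by 0.28 and 0.30 with quantile normalisation and summed counts. The count was 22 and 19 without replicate 1 or 2 of Abl.2. Both comparisons share the libraries of Abl.2. The summed myeloid markers were also highest in Abl.2, at 159 and 193 TPM against 75 to 97.2 in the other libraries, and their part in these differences was not tested.

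Between Abl.3 and Abl.4 the direction depended on scaling. On TPM, 7 genes were higher in Abl.3 and 33 lower (3.68% and 17.4%, next to 11.3% and 26.7%), but quantile normalisation gave 37 higher and 9 lower (17.5% and 15.8% of all genes) and edgeR on summed counts 24 and 21 of 199 (17.6% and 19.4%). The replicate block gave 13 and 43 (14.8% and 32.2%). The median difference was -0.15, next to -0.14 over all genes, and 0.14 and 0.04 with quantile normalisation and summed counts. Without replicate 2 of Abl.4 it was -0.07, next to -0.13 over all genes. No direction is therefore given for the Zfp genes as a group in this pair. The count was 17 and 18 without replicate 1 or 2 of Abl.3, and 23 without replicate 2 of Abl.4.

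The genes that stood highest in Abl.2 against Abl.3 were Zfp932, Zfp202, Zfp599, Zfp141 and Zfp445. Zfp445, which helps keep genomic imprints, was at 15.3 and 14.9 TPM in Abl.2, 5.32 and 6.11 in Abl.3 and 10.1 and 10.7 in Abl.4, with no overlap between lines. Its log2 difference between Abl.2 and Abl.3 was 1.26 ± 0.12 (SE, limma's adjusted p = 0.000468). Maternal shares of 0.466 and 0.470 in Abl.2 and of 0.405 and 0.417 in Abl.3 were not called different. In Abl.4 the maternal allele was the higher, at 5.98 ± 0.964 TPM against 4.42 ± 0.490 from the paternal allele (SD, n = 2). Zfp141 was at 17.9 and 25.5 TPM in Abl.2 against 8.15 and 8.12 in Abl.3, and both alleles were used alike in all lines (0.455 to 0.560). Zfp599 was at 5.30 and 6.12 TPM in Abl.2 and at 1.29 to 2.97 in the other libraries. Its difference from Abl.3, 1.35 ± 0.26 in log2 (SE, limma's adjusted p = 0.00746), did not pass without replicate 2 of Abl.2 (1.26, adjusted p = 0.0566) or replicate 1 of Abl.3 (1.15, adjusted p = 0.0508).

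Against Abl.4 the largest excess was in Zfp28, at 4.30 and 5.44 TPM in Abl.2, 2.62 in both libraries of Abl.3 and 0.70 and 0.96 in Abl.4. The log2 difference between Abl.2 and Abl.4 was 1.68 ± 0.18 (SE, limma's adjusted p = 0.000768). Zfp53, the most abundant gene of the first chromosome 17 cluster, was at 59.7 and 78.1 TPM in Abl.2, 53.7 and 52.6 in Abl.3 and 23.7 and 32.4 in Abl.4. Its mean shares of 0.421, 0.416 and 0.443 hardly moved. Zfp760 of the same cluster was at 5.28 and 6.87 TPM in Abl.2 and 1.58 and 2.44 in Abl.4, and Zfp658 at 7.19 and 7.33 against 3.16 and 2.72.

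In the other direction, Zfp385a, which has few fingers and no KRAB match, was at 3.45 and 2.43 TPM in Abl.2, 9.06 and 9.15 in Abl.3 and 18.2 and 14 in Abl.4. The difference of Abl.2 from Abl.4 was -2.12 ± 0.18 in log2 (SE, limma's adjusted p = 0.000331). Zfp825 was at 2.80 and 2.74 TPM in Abl.2 and 4.69 to 8.50 elsewhere, but shares 29.5% of its words with other genes. Its difference from Abl.3 (log2 -0.71 ± 0.19 SE, limma's adjusted p = 0.0276) did not pass when any library of Abl.2 or Abl.3 was left out (adjusted p = 0.0672 to 0.137), nor by edgeR on summed allelic counts (log2 -0.28, adjusted p = 0.391). Zfp709 was at 2.22 and 3.27 TPM in Abl.2 against 6.75 and 7.69 in Abl.4, where its maternal share was highest.

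Zfp318, which encodes a factor needed in B cells for the alternative IgM and IgD transcripts, was lowest in Abl.3. It stood at 15.7 and 16.4 TPM there, against 29.2 and 30.6 in Abl.2 and 34.2 and 32.3 in Abl.4 (log2 difference of Abl.3 from Abl.4 -1.0 ± 0.09 SE, limma's adjusted p = 0.00046). Its maternal allele was favoured in every library, from 0.635 to 0.692, and the lines did not differ in share. Zfp422 was also lowest in Abl.3, at 34.5 and 37.2 TPM, then 53.4 and 54.1 in Abl.2 and 76.0 and 79.8 in Abl.4. Zfp64, known to regulate the Mll gene in leukaemia cells, was at 85.9 and 69.1 TPM in Abl.3 against 57.4 and 43.5 in Abl.4. The difference was 0.61 ± 0.16 in log2 (SE, limma's adjusted p = 0.0277). It did not pass without replicate 1 of Abl.3 (0.46, adjusted p = 0.15) or replicate 2 of Abl.4 (0.42, adjusted p = 0.128), nor without either library of Abl.2 (adjusted p = 0.0552 and 0.0548). Its shares were 0.649 and 0.658 in Abl.3 and 0.489 to 0.521 in the other lines.

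Genes with a KRAB box match were of lower abundance than the rest, which may include KRAB genes that the pattern missed. Their median was 6.05 TPM in Abl.2, 4.72 in Abl.3 and 5.29 in Abl.4, against 19.2, 14 and 18.0 for the 98 genes without one. Strong bias in at least 1 line was found for 16 of the 101 KRAB genes (15.8%) and 7 of the 98 others (7.14%), next to 8.14% of all genes, at median counts of 303 to 433 and 512 to 779. Allelic differences in at least 1 pair were called for 24 and 25 genes (23.8% and 25.5%, next to 26.1% of all genes). In abundance, 24 of 97 KRAB genes were higher and 4 lower in Abl.2 than in Abl.4, against 4 higher and 8 lower of 93 others (12.9% and 19.3% of all genes), with medians of 0.27 and 0.13 in log2. Quantile normalisation gave 36 and 4 against 8 and 6, edgeR on summed counts 36 and 4 of 101 against 21 and 11 of 98, and the replicate block on TPM 33 and 5 against 11 and 11. On TPM, the KRAB genes higher in Abl.2 numbered 15 and 11 without replicate 1 or 2 of Abl.2, and 15 without replicate 1 of Abl.4. The others higher in Abl.2 numbered 0 without either library of Abl.2, and 2 without any 1 of the remaining libraries. Without replicate 1 of Abl.4 the medians of the groups were both 0.14, and without its replicate 2 they were 0.38 and 0.04. On TPM, 29 KRAB genes were higher and 2 lower in Abl.2 than in Abl.3, against 26 and 4 of the others (23.9% and 14.5% of all genes). Quantile normalisation gave 21 and 4 against 13 and 9 (16.9% and 18.5%). In Abl.3 against Abl.4, 2 were higher and 11 lower, against 5 and 22 (11.3% and 26.7%). With quantile normalisation this pair gave 22 and 2 against 15 and 7 (17.5% and 15.8%). Whether the groups differ was not tested in any pair, and shares of all genes with a library left out are not given.

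**Figure D5:**
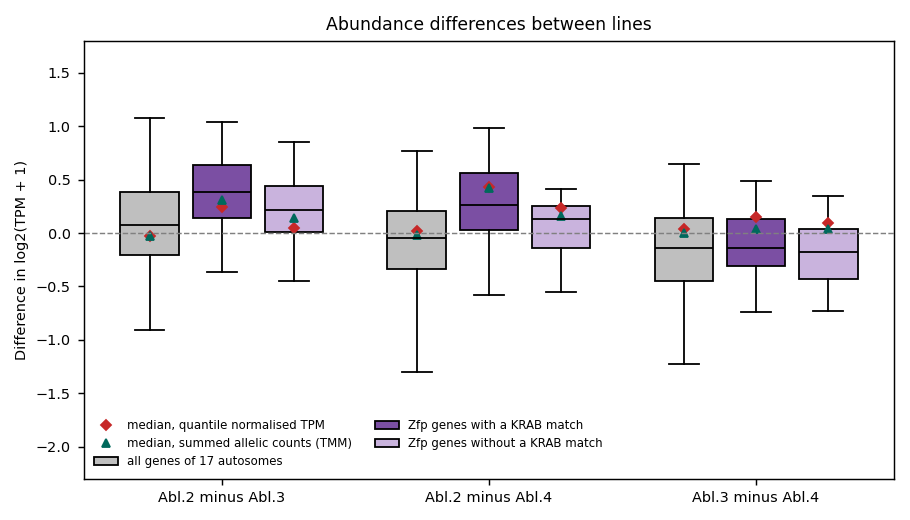
Differences in log2(TPM + 1) between lines (vertical axis) for all genes of the 17 autosomes (grey, 9300 genes) and for Zfp genes with (97) and without (93) a KRAB match; boxes span the quartiles with the median, whiskers the 5th to 95th percentile. Diamonds and triangles give the medians after quantile normalisation and from summed allelic counts; KRAB genes lie above all genes in both comparisons of Abl.2, and medians change sign with scaling in Abl.3 minus Abl.4.

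The replicates bear on this. Replicate 2 exceeded replicate 1 in the KRAB genes by a median of 0.17 in log2 in Abl.2, 0.05 in Abl.3 and 0.20 in Abl.4, while over all genes the medians were -0.00083, -0.027 and -0.00195. Genes without a KRAB match had 0, -0.08 and -0.03. Without replicate 1 of Abl.4 the median of the KRAB genes in Abl.2 against Abl.4 was 0.14 and without its replicate 2 it was 0.38. In Abl.3 against Abl.4 the median was -0.23 and 0.03 in the same order. The part of library preparation in these differences was not tested.

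Genes that act with KRAB proteins were taken as a list of 30, from Trim28 to the enzymes of histone and DNA methylation, and 29 were tested for abundance. Of the 21 on the 17 autosomes and at the count minimum, on TPM as deposited, 5 were higher and 3 lower in Abl.2 than in Abl.3, 2 and 1 in Abl.2 than in Abl.4, and 0 and 5 in Abl.3 than in Abl.4 by limma. Over all genes of these autosomes the shares called higher and lower were 23.9% and 14.5%, 12.9% and 19.3%, and 11.3% and 26.7% for these pairs. Trim28, the shared partner of KRAB proteins, was at 638 and 626 TPM in Abl.2, 698 and 662 in Abl.3 and 660 and 623 in Abl.4, and no pair was called. Resf1, a partner of the methyltransferase encoded by Setdb1, was at 291 and 436 TPM in Abl.2 and 147 to 183 in the other libraries. Atf7ip, which stabilises the Setdb1 protein, used mostly the maternal allele in Abl.2 (0.861 ± 0.0116) and the paternal one in Abl.3 (0.198 ± 0.027) and Abl.4 (0.220 ± 0.00124; SD, n = 2). The 12 SCAN-named zinc finger genes (Zscan and Zkscan, taken by symbol) at the same minimum had 0 strongly biased in any line, next to 8.14% of all genes in at least 1 line. Differences in share were called by edgeR in at least 1 pair for 2 of them (26.1% of all genes), and 2 were higher and 1 lower in Abl.2 than in Abl.3 by limma (23.9% and 14.5% of all genes). Against Abl.4, 2 were higher and 2 lower in Abl.2 (12.9% and 19.3% of all genes), and 0 higher and 2 lower in Abl.3 (11.3% and 26.7%).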

How the data were processed

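RNA was sequenced from live cells of the 3 clones, taken after a density gradient, with libraries made by SMART-seq v4 from bead-extracted RNA, per the labels' protocols. The deposited allele table holds whole-number counts over the maternal and paternal base at known single-base differences within genes, per the file headers. Whether a read over several such positions counts once is not given there. The deposited abundance table holds TPM obtained with DESeq2, per the file headers, and the depth behind it is unknown. The deposited imbalance table holds the maternal fraction with its limits after averaging replicates, per the file headers. The submitters' processing notes name STAR 2.5.4a, SAMtools, GATK, DESeq2 and the builds GRCm38, mm10 and GRCh37 with no role. Coordinates are as the authors deposited them, and 198 of the 199 genes have the same start and end in GENCODE M21 (GRCm38).

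Allelic counts of 8702 genes (20 or more in each library) were fitted with edgeR 4.0.16 in R 4.3.3, with 1 library size for both alleles of a library, and imbalance and the difference between lines were tested with the quasi-likelihood test. Abundance of 11003 genes (mean of at least 1 TPM) was fitted on log2(TPM + 1) with limma 3.58.1. Of the 199 Zfp genes, 7 fell under this filter and 2 (Zfp82 and Zfp953) were not in the abundance table. P-values were adjusted by Benjamini-Hochberg over all genes of each fit, with 0.05 as the threshold, and called shares of all genes refer to the 17 autosomes. Which strain was the mother was not used. Tables and figures were made with Python 3.11.15, pandas 2.3.3, scipy 1.17.1 and matplotlib 3.10.9.

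Genes were named by rule: strong bias in a line, the 6 clearest allelic differences and the 5 largest rises and falls in abundance per pair, members of clusters, the extremes of abundance and of the count minimum. Zfp142 and Zfp839 were named for their finger counts. Trim28, Resf1 and Atf7ip were picked from the list of genes that act with KRAB proteins, outside these rules. The gene set and lists were chosen with earlier results of these data known. On simulated allelic counts with 200 genes of 7495 changed by a log2 of 2, 96.0% and 96.5% were recovered for Abl.2 against Abl.3 and Abl.4, with 8.57% and 3.50% false calls. For abundance, 71.0% and 73.0% of 200 genes of 11003 changed by a log2 of 1 were recovered, with 6.58% and 5.81% false calls. Alternatives covered the count minimum, DESeq2 1.42.0 on allelic counts, library sizes, pseudocount, filters, scaling, a replicate term and each library left out.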

Additional observations from a re-analysis of the deposited data

Results flagged for a closer look

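For 12 combinations of a Zfp gene and a pair of lines, edgeR's quasi-likelihood test called imbalance in both lines, towards opposite parents, and called the difference between them. The mean share differed between Abl.2 and Abl.3 by 0.893 for Zfp623 and by 0.996 for Zfp551. Between Abl.2 and Abl.4 it differed by 1.0 for Zfp251, 0.977 for Zfp551, 0.953 for Zfp623, 0.920 for Zfp518a, 0.635 for Zfp606 and 0.217 for Zfp28. Between Abl.3 and Abl.4 it differed by 1.0 for Zfp870, 0.719 for Zfp229, 0.6001 for Zfp251 and 0.452 for Zfp28. The adjusted p-values ran from 5.51e-09 (Zfp518a) to 0.0125 (Zfp28, Abl.2 against Abl.4). The latter difference did not pass without replicate 1 of Abl.2 (edgeR's adjusted p = 0.0622) or replicate 1 of Abl.4 (adjusted p = 0.102). Every library of one line was on the other side of 0.5 from every library of the other line. The pairs share lines, and the 12 combinations come from 8 genes. How many of all genes met the same rule was not counted. In the nearest class counted, imbalance called in all 3 lines with mixed direction, were 4 Zfp genes (2.01%, next to 1.76% of all genes).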

How the results depend on the processing

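The 36 strong imbalances kept their direction and their side of the threshold in all 455 alternative values. Of 638 values for the 50 called allelic differences of the genes named for strong bias or a clear difference, 608 did so and 30 kept the direction without passing. For the 30 abundance differences named by rule these numbers were 305 and 43 of 348. None of these results changed direction. All were chosen by their values in the same libraries, the strong imbalances by their extreme shares, so the alternatives could hardly have reversed them.

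Counts moved by over 1.5 times under these alternatives. With the authors' deposited interval, imbalance was called for 37 genes in Abl.3 and 28 in Abl.4. With a share difference of at least 0.2 as well, allelic differences numbered 17 for Abl.2 against Abl.3 and 15 for Abl.3 against Abl.4. With a log2 change of at least 1 as well, abundance differences numbered 10, 8 and 5 for Abl.2 against Abl.3, Abl.2 against Abl.4 and Abl.3 against Abl.4. The shares of all genes under that rule are not given here. EdgeR on summed allelic counts with TMM gave 72 for Abl.2 against Abl.4. With each library left out in turn, imbalance counts ranged from 54 to 85, 46 to 83 and 51 to 71 in Abl.2, Abl.3 and Abl.4. Allelic differences ranged from 21 to 33, 23 to 33 and 17 to 31, and abundance differences from 29 to 60, 19 to 32 and 17 to 38, in the order of the pairs. A line left with 1 library was assumed to vary like the others. Under the other alternatives total counts stayed within 1.5 times, cluster numbers included (25 at 100 kb, 29 at 1000 kb). Counts in 1 direction moved by more under quantile normalisation, summed counts and the replicate block, as given with the abundance results. They also did with DESeq2 (22 and 23 paternal calls in Abl.3 and Abl.4), a mean of at least 5 TPM (17 higher in Abl.2 than in Abl.4) and no filter (4 higher in Abl.3 than in Abl.4).

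The labels do not say whether equal replicate numbers mark a shared preparation. Deviations of equal-numbered libraries correlated over genes at 0.104, 0.187 and 0.161 in abundance, in the order of the pairs, a hint of pairing from the data, and at -0.06 to 0.02 in share. With the replicate block, imbalance counts were 78, 79 and 67, allelic differences 31, 32 and 27, and abundance differences 79, 60 and 56. Depth limited the genes near the count minimum. Genes averaging under 1 TPM were tested for abundance only without the filter or on summed allelic counts.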

Other observations

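Zfp-named genes outside the 199 also held values that differed widely between the clones. Zfp27 (chromosome 7) missed the count minimum in Abl.4 alone, with 4 and 5 allelic counts there. It was wholly maternal in Abl.2 (157 and 159 counts) and mostly paternal in Abl.3 (mean share 0.0587 on 357 and 327 counts). Its abundance was 1.03 and 0.72 TPM in Abl.2, 2.40 and 2.28 in Abl.3 and 0.02 in both libraries of Abl.4. The difference of Abl.3 from Abl.4 was 1.71 in log2(TPM + 1). Zfp27 passed the filter of a mean of 1 TPM only through Abl.3, so no test of this difference is given. Zfp975 had no allelic count and was listed at 0 TPM in Abl.2. It was at 1.08 and 1.26 TPM in Abl.3 and 0.50 and 1.34 in Abl.4, with mean shares of 0.702 and 1.0.

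For the next genes only abundance was analysed here. Zfp951 was listed at 0 in Abl.2, at 4.25 and 6.03 TPM in Abl.3 and at 2.91 and 3.22 in Abl.4. Zfp286 was listed at 0 in every library but those of Abl.3, where it was at 1.47 and 1.08 TPM. Zfp287 was at 2.47 and 3.38 TPM in Abl.2, 2.35 and 1.90 in Abl.3 and 0.42 and 0.37 in Abl.4. Zfp950 was at 24.57 TPM in replicate 2 of Abl.4 and at 1.79 to 2.47 in the 5 other libraries, so the replicates of Abl.4 disagreed. These genes were chosen after their values were seen.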
